A study of Bos taurus with 24 samples.

Results

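Control cultures of bovine pre-adipocytes, grown in differentiation medium without added fatty acid, were compared between day 7 and day 4. They make up 6 of the 24 RNA-seq libraries of the series, and were chosen by their treatment label (CON) and time label. The pre-adipocytes came from explants of subcutaneous adipose tissue of Holstein cows. The day 4 group holds 1 library each from cows 4, 5 and 6, and the day 7 group 1 library each from cows 1, 2 and 3. All 6 cultures received a medium with 10% fetal bovine serum, 5 µg/mL insulin, 10 mM acetate and 5 µM troglitazone, a thiazolidinedione agonist of PPARG. Dexamethasone, a glucocorticoid (1 µmol/L), and isobutylmethylxanthine, a phosphodiesterase inhibitor that raises cAMP (0.5 mmol/L), were given in the first 48 h of induction alone. In all 6 cultures 60% of the medium was changed every 48 h. In the fatty acid arms of the series, treatment accompanied induction at day 4 and began 48 h after induction at day 7; the labels do not say whether the day of the controls is counted from induction or from that later start. The study asked how palmitic and oleic acid act on these cells, and its controls of the 2 days show how the cultures stood without them.

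No cow gave a library at both days, and the 2 days were deposited as separately scaled tables of FPKM (fragments scaled to gene length and to the size of the library). Day, animal and table therefore cannot be told apart in any difference given here. Each library was divided by 1 factor, the median ratio of its genes to their geometric mean over the 6 libraries, and every level given is FPKM on this common scale. Values are listed in the order of cows 4, 5 and 6 for day 4 and of cows 1, 2 and 3 for day 7. A difference is the mean of log2(FPKM + 1) at day 7 minus that at day 4, with its standard error (SE), from a limma fit across all genes tested.

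When pre-adipocytes are induced, glucocorticoid and cAMP signals switch on the early factors CEBPB and CEBPD. These activate PPARG and CEBPA, which drive the genes of fatty acid uptake, triacylglycerol storage and adipokine secretion. WNT and TGF-beta signals are known to hold such cells in a fibroblast or myofibroblast state, and BMP signals to favour their commitment to fat. Bovine adipose tissue makes most of its fatty acids from acetate.

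The cultures were labelled adipocytes, and the marker lists showed a fibroblast profile at both days, with a contractile one beside it at day 7. In day 7 libraries the preadipocyte and fibroblast markers summed to 8947, 7967 and 7828 FPKM. Smooth muscle and myofibroblast markers reached 5171, 10903 and 10999 FPKM there, more than the former list in cows 2 and 3 and less in cow 1. The day 4 sums were 3897, 8748 and 9678 FPKM for the fibroblast list, against 1618, 2655 and 4024 for the smooth muscle list. The tables held 23 adipocyte markers, of which 11 reached a mean of 1 FPKM at day 4 and 10 did at day 7. The library of cow 4 had 2 reads of ADIPOQ, which encodes adiponectin, and the other 5 had none, and LEP, which encodes leptin, averaged at most 0.0128 FPKM at either day. LPL, the lipoprotein lipase, lay at 0.713, 0.519 and 0.984 FPKM at day 4 and 0.711, 0.347 and 0.306 at day 7. Fibroblast transcripts were abundant: VIM averaged 2448 FPKM at day 4 and 3619 at day 7, and DCN 2399.9 and 1045. COL1A1, a chain of collagen I, was the transcript with a gene name and the highest mean at day 7. The summed level of 17 macrophage and leukocyte markers ranged over 14.9 to 17.5 FPKM in day 4 libraries and over 7.19 to 29.5 in those of day 7, and PTPRC, the pan-leukocyte marker CD45, had no read in any of the 6 libraries. The 14 endothelial markers summed to 2.41 to 5.84 and 3.88 to 4.01 FPKM, with no read of CLDN5 or EMCN, and 14 epithelial and mesothelial markers to 2.34 to 4.40 and 2.89 to 17.2 FPKM, with no read of EPCAM; MSLN, which encodes mesothelin, had 0.855, 1.41 and 0.742 FPKM at day 4 and 0.222, 7.595 and 13.99 at day 7. The 10 pericyte markers summed to 38.7 to 123 and 44.1 to 144 FPKM, most of it from PDGFRB, and RGS5 had no read. In such bulk samples, fewer cells of a type and less RNA per cell cannot be told apart.

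Libraries held 13950254 to 15138538 reads at day 4, from the counts, and 19358115 to 24008811 at day 7, as recovered from the FPKM, and 11590 to 12138 genes reached 1 FPKM in a library. For a gene with no read, the upper limit on its level was 0.198 to 0.215 CPM (counts scaled to a common library size) at day 4 and 0.125 to 0.155 at day 7 (a floor of 3 counts, counting error only). Log2 profiles correlated across 12149 genes at 0.899 to 0.949 within day 4, 0.940 to 0.949 within day 7 and 0.852 to 0.909 between days. The day 4 library of cow 6 was nearest to day 7, at 0.896 to 0.909, and farther from that of cow 4, at 0.899, than cows 4 and 5 were from each other, at 0.949.

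Of 12149 genes tested, 320 were called higher at day 7 (2.63%) and 172 lower (1.42%) at an adjusted p under 0.05, together 4.05%. Groups did not overlap in 31.2% of all genes tested, with 16% higher in every day 7 library and 15.2% lower in every one. The smallest p of an exact permutation test of 3 against 3 libraries is 0.1, so the calls rest on limma's estimate of spread shared across genes. The split of the calls depends on the scale: 253 were higher and 762 lower on the FPKM as deposited, 138 and 388 with every library scaled to the same sum, and 303 and 287 after quantile normalization. Taken over all genes, the median difference was 0.01 on the common scale, -0.23 as deposited and -0.36 with equal sums. None of the 492 called genes changed sign under any alternative that tested it. Genes were called for a large difference and the alternatives reuse the same cows, so this is a weak check of direction. Leaving out the day 4 library of cow 6 gave 1003 higher and 895 lower genes, leaving out that of cow 5 gave 9 and 1, and that of cow 4 gave 22 and 9. Without the day 7 library of cow 1 there were 143 and 41, of cow 2 there were 53 and 13, and of cow 3 there were 49 and 19.

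**Figure D1:**
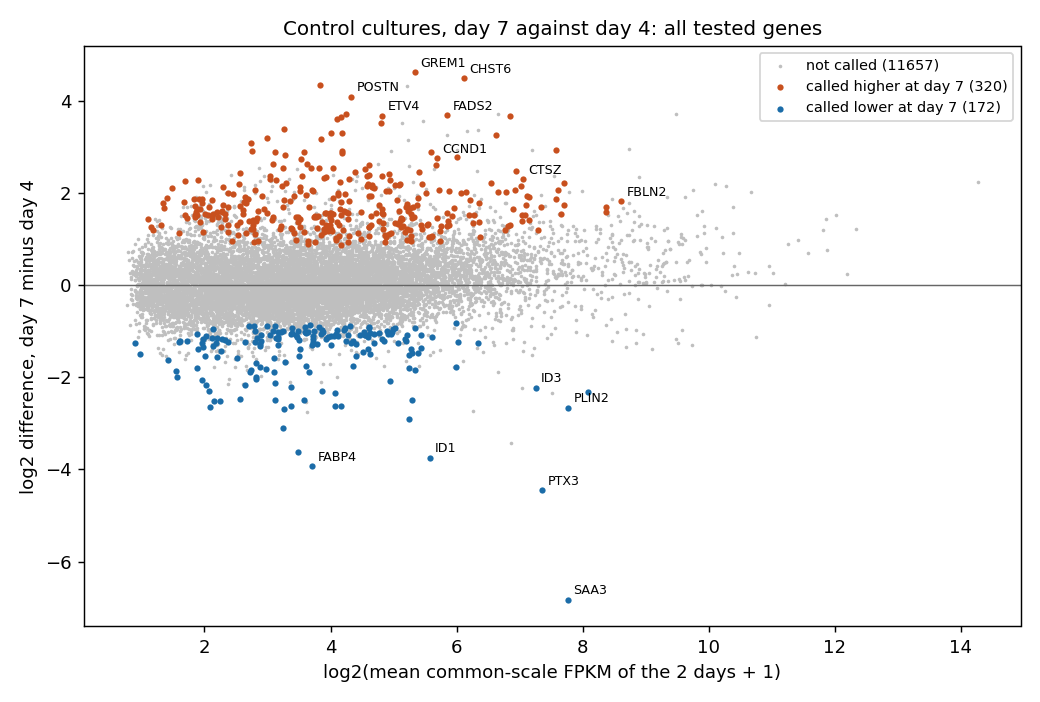
Each point is 1 of 12149 genes: the x axis is log2 of its mean common-scale FPKM over both days plus 1, the y axis its log2 difference, day 7 minus day 4, in the control cultures. Orange points (320) were called higher at day 7 and blue points (172) lower; SAA3 at -6.83 and GREM1 at 4.61 mark the ends among genes with a symbol.

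9 of the 492 called genes were called whichever of the 6 libraries was left out, and they are named here after their values were seen. Every other call given here was lost in at least 1 such omission. CCND1, which encodes cyclin D1, the partner of CDK4 and CDK6 at the start of the cell cycle, stood at 14.4, 11.6 and 11.1 FPKM at day 4 and 79.7, 92.3 and 94.7 at day 7. The groups were far apart and each was tight, with a difference of 2.76 ± 0.19 (limma adjusted p = 0.00345). ETV4, an ETS transcription factor induced by FGF and ERK signalling, went from 3.62, 1.89 and 3.91 to 65.4, 46.8 and 41.7 FPKM (3.67 ± 0.28, limma adjusted p = 0.00345). CHST6, a sulfotransferase that acts on keratan sulfate, went from 6.88, 3.59 and 3.51 to 106, 79.7 and 211 FPKM (4.49 ± 0.39, limma adjusted p = 0.00734). Every day 7 library was above every day 4 library for all 3 genes, and the 12 day 7 libraries of all treatments stayed above the 12 of day 4, at 79.7 to 127 against 8.64 to 15.5 FPKM for CCND1. CHN1, a RAC GTPase-activating protein, rose from 2.202, 3.93 and 3.36 to 23.6, 27.2 and 18.2 FPKM, and SMIM10L1, a small membrane protein gene, from 0.7699, 0.961 and 0.309 to 13.7, 19.1 and 16.4 FPKM, the former on 3, 3 and 1 reads. GNAS, which encodes the stimulatory G protein subunit, rose from 11.9, 19.96 and 14.7 to 103, 141 and 89.6 FPKM; its locus gives several overlapping transcripts that gene counting may not separate. The others were the microRNA locus bta-mir-2887-2, which rose, and 2 genes without a symbol, of which ENSBTAG00000054441 rose and ENSBTAG00000052974 fell. Over all treatments, cultured from the same cows and so not separate animals, 304 of the 320 genes called higher had all 12 day 7 libraries above all 12 of day 4, and 137 of the 172 called lower had all 12 below; over all 12149 genes these counts were 966 and 825. The 12 libraries of each day include the 3 controls from which the genes were called. The counts of 304 and 137, and the ranges over all treatments, are therefore no separate support for the calls.

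FABP4 and PLIN2, which bind and store fatty acids and respond to PPARG, fell at day 7. FABP4, the adipocyte fatty acid binding protein, stood at 10.1, 21.98 and 38.9 FPKM at day 4 and 0.171, 0.973 and 0.241 at day 7. All 3 day 4 libraries lay at least at 10.1 FPKM and all 3 day 7 libraries below 1, and the difference was -3.93 ± 0.46 (limma adjusted p = 0.013). The day 7 values rest on 3, 13 and 3 reads, so the log2(FPKM + 1) scale understates this change. PLIN2, which coats lipid droplets, went from 270.3, 213 and 653 to 58.4, 32.7 and 74.03 FPKM (-2.66 ± 0.47, limma adjusted p = 0.0315). Again no library of one day reached the other. PPARG itself had 3.69, 0.814 and 3.398 FPKM at day 4 and 0.273, 0.155 and 0.501 at day 7, groups that did not overlap, but it reached 1 FPKM in too few libraries to be tested. With the filter removed its difference was -1.36 (limma adjusted p = 0.157), and edgeR on reads gave -3.17 (adjusted p = 0.0518). CD36, a fatty acid transporter, showed 1.03, 2.53 and 4.78 at day 4 and 0.419, 0.0536 and 0.158 FPKM at day 7 without overlap (-1.53 ± 0.40, limma adjusted p = 0.0684, not called). Values of CEBPA are not reported here.

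The pair of genes that bring fatty acids into mitochondria, CPT1A and SLC25A20, fell as well. CPT1A, the carnitine palmitoyltransferase that commits fatty acids to oxidation, went from 60.5, 46.7 and 61.1 to 27.97, 17.6 and 14.7 FPKM (-1.48 ± 0.27, limma adjusted p = 0.032). SLC25A20, which carries acylcarnitine across the inner membrane, went from 34.97, 39.3 and 42.7 to 15.5, 11.4 and 23.4 FPKM (-1.22 ± 0.27, limma adjusted p = 0.0491). For each gene the highest day 7 library lay below the lowest of day 4. PDK4, an inhibitor of pyruvate dehydrogenase that PPARs and glucocorticoids induce, had 1.603, 2.12 and 1.19 against 0.125, 0.0448 and 0.434 FPKM (limma adjusted p = 0.0613, not called). FABP3, the fatty acid binding protein known from heart muscle, did the opposite of FABP4 and rose from 7.17, 6.03 and 9.26 to 20.4, 60.7 and 59.3 FPKM (2.36 ± 0.41, limma adjusted p = 0.03). Of 20 PPAR-responsive lipid genes tested, 3 fell (PLIN2, CPT1A and SLC25A20) and 1 rose (FABP3), against 1.42% and 2.63% of all genes. The median of the 20 was -0.11. On the FPKM as deposited 6 were called lower (median -0.37), and with equal sums (median -0.51) and after quantile normalization 5 each, with 1 higher throughout. Of 28 fatty acid oxidation genes, the same CPT1A and SLC25A20 fell and none rose, with a median of 0.19, which becomes -0.05 on the FPKM as deposited and -0.21 with equal sums, scales on which the median of all genes is -0.23 and -0.36. Leaving out the day 4 library of cow 4 or 5, or the day 7 library of cow 2 or 3, left none of the 20 PPAR-responsive genes called.

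**Figure D2:**
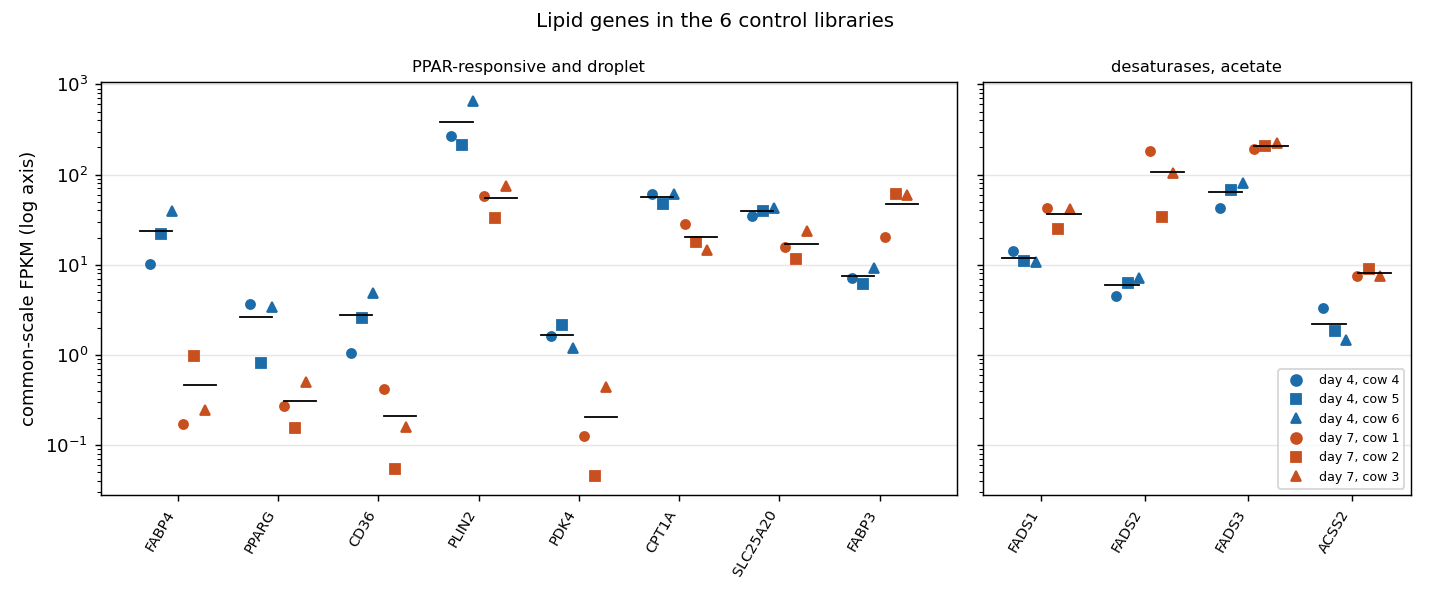
Common-scale FPKM on a log axis for 12 lipid genes; each symbol is 1 library (blue, day 4; orange, day 7; shape, cow) and each black line the mean of 3 libraries. FABP4, PPARG, CD36, PLIN2, PDK4, CPT1A and SLC25A20 lie lower in every day 7 library, FABP3 and the 4 genes of the right panel higher in every one.

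Among other adipocyte markers, SLC2A4, the insulin-regulated glucose transporter, rose from 0.226, 0.745 and 0.972 to 5.37, 2.297 and 3.82 FPKM (1.53 ± 0.33, limma adjusted p = 0.0465). PNPLA2, the lipase that starts triacylglycerol breakdown, had 7.21, 4.33 and 8.71 at day 4 and 17.3, 15.1 and 10.9 FPKM at day 7 without overlap and was not called (limma adjusted p = 0.0845). PLIN1, the perilipin of mature adipocytes, lay at 1.35, 1.98 and 1.77 at day 4 and 1.06, 2.03 and 0.641 FPKM at day 7, with groups that overlapped. FABP4 fell and SLC2A4 rose among 12 adipocyte markers tested, against 1.42% and 2.63% of all genes, with a median of -0.05 against 0.01 over all genes. Of 22 adipogenic transcription factors none was called. CEBPB had 56.8, 70.9 and 176 at day 4 and 658, 244 and 310.1 FPKM at day 7, higher in every day 7 library (2.03 ± 0.51, limma adjusted p = 0.0642), and CEBPD 369, 175 and 385 at day 4 and 736, 356 and 307 at day 7, with overlap. None of 14 PPAR receptors and coregulators was called, and 9 of them had differences below 0. On the FPKM as deposited, and without the day 4 library of cow 6, 3 of the 14 were called lower. None of 16 glycerolipid synthesis genes was called, and DGAT1, which makes triacylglycerol, lay at 26.3, 29.9 and 35.6 at day 4 and 38.5, 27.95 and 41.2 FPKM at day 7.

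The desaturases FADS1, FADS2 and FADS3, which act on polyunsaturated fatty acids or sphingolipids, and the acetate-activating ACSS2 rose at day 7. FADS2, the delta-6 desaturase, went from 4.48, 6.27 and 7.18 to 183, 34.1 and 105 FPKM (3.68 ± 0.54, limma adjusted p = 0.0237). Its day 7 values spread widely, yet the lowest, in cow 2, was over the highest of day 4. FADS1, the delta-5 desaturase, went from 14.001, 10.99 and 10.7 to 42.4, 25.1 and 41.3 FPKM (1.5 ± 0.25, limma adjusted p = 0.0285), and FADS3, a desaturase of the same family, from 42.95, 67.2 and 81.1 to 191, 209 and 225 (1.74 ± 0.28, limma adjusted p = 0.0273). All 3 were higher in every day 7 library. ACSS2, which activates acetate to acetyl-CoA in the cytosol, rose from 3.27, 1.83 and 1.44 to 7.42, 9.001 and 7.56 FPKM (1.54 ± 0.26, limma adjusted p = 0.0295). The classical lipogenic enzymes were not called: FASN, the fatty acid synthase, lay at 17.2, 20.5 and 24.5 at day 4 and 24.2, 60.3 and 57.1 FPKM at day 7, and SCD, the delta-9 desaturase, at 23.6, 32.8 and 21.4 at day 4 and 30.3, 95.6 and 82.5 FPKM at day 7. In both, cow 1 lay within the day 4 range and cows 2 and 3 above it. Over the 22 genes of lipogenesis and desaturation, 4 rose and none fell, against 2.63% and 1.42% of all genes, and 7 were higher in every day 7 library, against 16%. The median was 0.63, and with equal sums 2 were called. None of the 22 was called without the day 4 library of cow 4 or 5 or the day 7 library of cow 3. FADS1 and FADS2 also lost their call when the 4 libraries of each cow were averaged over treatments.

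In cholesterol synthesis, all 24 genes tested had differences above 0, with a median of 1.17 against 0.01 over all genes. The enzymes called were DHCR7, which makes cholesterol in the last step of one branch, FDFT1, which makes squalene, and LSS, which closes the sterol rings. The fourth was SREBF2, the transcription factor that drives the pathway when sterols are low. DHCR7 stood at 9.697, 5.04 and 7.68 FPKM at day 4 and 22.9, 48.6 and 44.8 at day 7 (2.20 ± 0.34, limma adjusted p = 0.0259). SREBF2 stood at 17.7, 11.7 and 16.9 at day 4 and 31.9, 57.2 and 61.9 FPKM at day 7 (1.61 ± 0.30, limma adjusted p = 0.0323). LSS stood at 3.95, 3.36 and 3.46 at day 4 and 7.82, 27.6 and 26.2 FPKM at day 7 (2.05 ± 0.43, limma adjusted p = 0.0453). In DHCR7, SREBF2, FDFT1 and LSS every day 7 library was higher, and cow 1 was the lowest of the 3. HMGCS1, which makes the HMG-CoA of the pathway, had 4.17, 5.32 and 3.85 at day 4 and 6.59, 46.2 and 31.7 FPKM at day 7, and SQLE, the squalene epoxidase, 8.34, 8.42 and 5.805 at day 4 and 9.87, 43.5 and 36.3 at day 7, neither called. In 15 of the 24 genes all day 7 libraries were higher, against 16% of all genes. Without the day 7 library of cow 1, 12 were called, and without the day 4 library of cow 4 or 5 or the day 7 library of cow 2 or 3, none was, with medians of 0.97 to 1.47 over the 6 omissions. On the FPKM as deposited and with equal sums, 22 of the 24 were above 0, and edgeR gave 23.

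**Figure D3:**
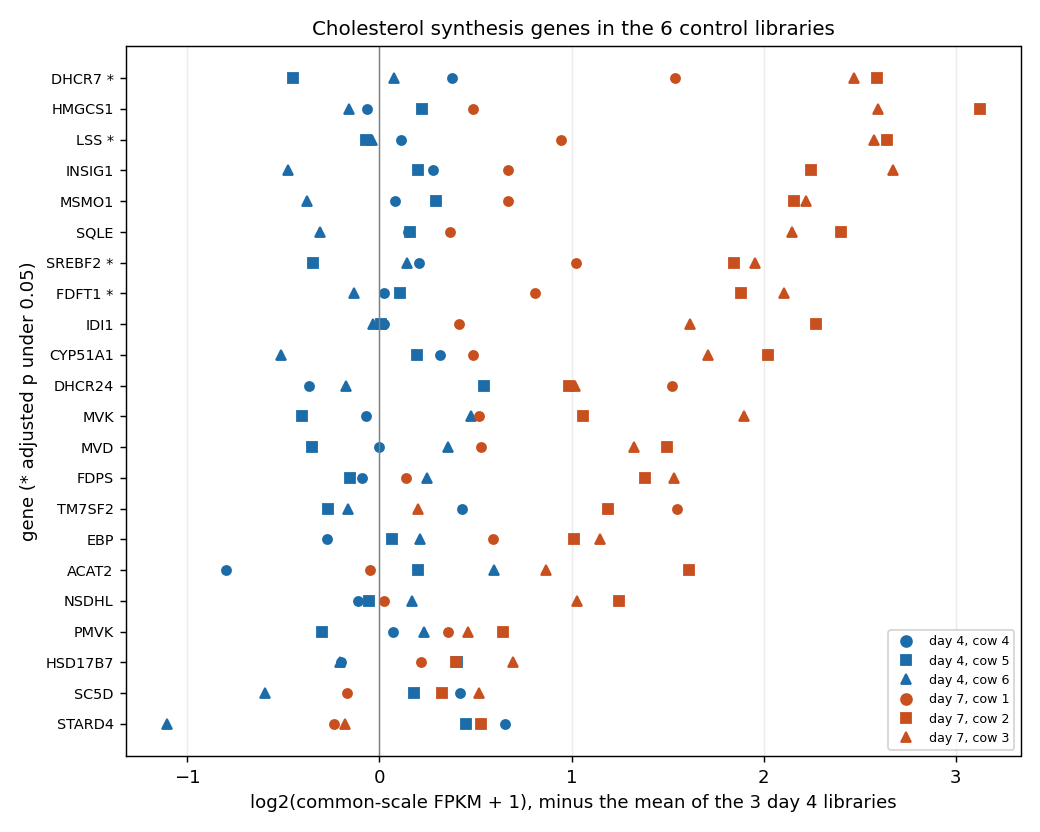
Log2(common-scale FPKM + 1) of 22 of the 24 cholesterol synthesis genes in each control library, minus the mean of the 3 day 4 libraries of that gene; stars mark the 4 genes called. Cows 2 and 3 of day 7 (orange squares and triangles) lie farthest to the right in most genes, and cow 1 (orange circles) is nearer the day 4 libraries.

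4 target genes of BMP signalling fell at day 7, and GREM1, a secreted BMP antagonist, rose. ID1, an inhibitor of basic helix-loop-helix factors that BMP receptors induce through SMAD proteins, went from 72.5, 72.3 and 116 to 2.44, 5.12 and 11.3 FPKM (-3.75 ± 0.44, limma adjusted p = 0.0141). ID2 went from 85.5, 59.8 and 49.3 to 6.11, 18.1 and 9.91 FPKM (-2.49 ± 0.37, limma adjusted p = 0.0254), and ID3 from 251, 216 and 274 to 32.2, 90.5 and 46.7 (-2.23 ± 0.37, limma adjusted p = 0.0276). SMAD6, an inhibitory SMAD and itself a BMP target, went from 13.6, 9.48 and 11.1 to 4.51, 5.87 and 4.98 FPKM (-1.01 ± 0.22, limma adjusted p = 0.0465). None of these 4 genes overlapped between days. GREM1, which binds and blocks BMP ligands, rose from 1.05, 0.6996 and 6.71 to 93.8, 87.9 and 45.7 FPKM (4.61 ± 0.57, limma adjusted p = 0.0162), the largest rise among genes with a symbol and at least 5 FPKM. Its 12 day 7 libraries over all treatments, these controls included, held 31.6 to 116 FPKM against 0.503 to 6.71 in those of day 4. The ligand BMP4 was itself higher in every day 7 library, at 7.203, 4.64 and 4.64 against 12.2, 10.1 and 11.96 FPKM, without passing the test (limma adjusted p = 0.0582). The TGF-beta, BMP and YAP list had 4 members called lower and 1 higher of 34, against 1.42% and 2.63% of all genes. Its median was 0.50. CTGF, a target of YAP and TGF-beta, had 354, 571 and 1075 at day 4 and 1620.2, 2554 and 1809 FPKM at day 7 (limma adjusted p = 0.0978, not called). Without the day 4 library of cow 4 or 5 none of the 34 was called. EdgeR on reads also called 1 higher and 4 lower, with ID1 at an adjusted p of 0.0341 and GREM1 at 0.0404.

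6 genes of the WNT pathway rose, among them receptors, a feedback target and secreted antagonists. AXIN2, a feedback inhibitor that beta-catenin induces, went from 1.77, 1.31 and 1.25 to 7.59, 5.27 and 7.85 FPKM (1.68 ± 0.24, limma adjusted p = 0.0215). The receptors FZD1, at 55.97, 99.4 and 73.5 at day 4 and 301, 185 and 251 FPKM at day 7, and FZD2, at 2.06, 3.31 and 3.57 at day 4 and 8.07, 8.54 and 9.51 FPKM at day 7, both rose (limma adjusted p = 0.0317 and 0.0317). SFRP1, a secreted protein that binds WNT ligands, rose from 4.85, 1.13 and 2.53 to 65.3, 14.2 and 15.5 FPKM (2.85 ± 0.60, limma adjusted p = 0.045). DKK3, a secreted relative of the Dickkopf antagonists, rose from 40.05, 51.8 and 47.4 to 199, 201 and 186 FPKM (2.06 ± 0.20, limma adjusted p = 0.00734), with tight groups at each day. WISP2, a secreted CCN protein known from WNT-treated cells, rose from 1.66, 2.46 and 2.11 to 13.9, 118 and 22.8 FPKM (3.51 ± 0.67, limma adjusted p = 0.0355), with cow 2 far above cows 1 and 3. The ligand WNT5A lay at 5.87, 4.64 and 6.91 FPKM at day 4 and at 28.5, 43.8 and 507 at day 7, where cow 3 stood apart, and was not called (limma adjusted p = 0.0638). FZD4, another receptor, had lower values in every day 7 library, 15.3, 6.66 and 5.21 against 3.44, 3.51 and 1.29 FPKM (limma adjusted p = 0.104). Of 24 genes tested, 15 lay above 0 and 9 below, with a median of 0.49. In all, 6 were called higher and none lower, against 2.63% and 1.42% of all genes. Leave-one-out counts ran from 0, without the day 4 library of cow 5, to 6, without that of cow 6.

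**Figure D4:**
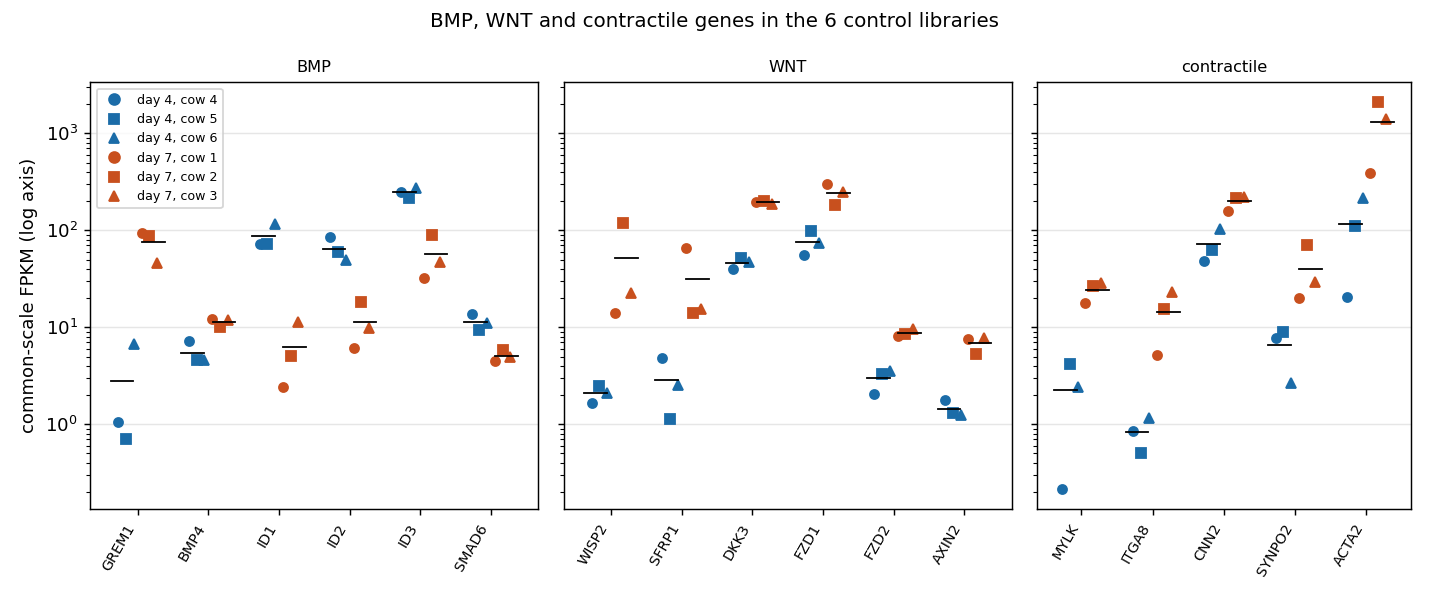
Common-scale FPKM on a log axis for genes of BMP signalling, WNT signalling and the contractile apparatus; each symbol is 1 control library (blue, day 4; orange, day 7; shape, cow) and each black line the mean of 3. ID1, ID2, ID3 and SMAD6 are lower in every day 7 library and all other genes shown are higher in every one.

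Contractile genes had the highest median of the lists with at least 10 genes tested, 1.95, and all 17 genes of the smooth muscle and myofibroblast list lay above 0. MYLK, the kinase that activates smooth muscle myosin, rose from 0.213, 4.21 and 2.401 to 17.7, 26.7 and 28.8 FPKM (3.16 ± 0.50, limma adjusted p = 0.0273). ITGA8, an integrin of contractile cells, rose from 0.845, 0.506 and 1.16 to 5.23, 15.3 and 23.01 FPKM (2.89 ± 0.47, limma adjusted p = 0.0273). CNN2, a calponin, SYNPO2, an actin-bundling protein, and NOTCH3, a receptor known from vascular smooth muscle, were also called, with differences of 1.52, 2.39 and 1.48. The list thus had 5 of 17 genes called higher, against 2.63% of all genes. ACTA2, the smooth muscle actin that marks myofibroblasts, lay at 20.7, 110.3 and 217 FPKM at day 4 and 392, 2125 and 1399.7 at day 7. Its groups did not overlap, but each spread widely and it was not called (3.71 ± 0.91, limma adjusted p = 0.0616). ACTG2 had 12.4, 13.04 and 361 at day 4 and 30.3, 658 and 1489 FPKM at day 7, and TAGLN 241, 589 and 1349 at day 4 and 1269, 3033 and 3262 FPKM at day 7, with overlap in both. For TAGLN and ACTG2 the day 4 library of cow 6 was higher than the day 7 library of cow 1. Reads of ACTA2 and ACTG2 may be split between the near-identical actins. Without the day 4 library of cow 6, 10 of the 17 were called, without that of cow 5 or the day 7 library of cow 2 or 3 none was, and edgeR called 2 of the 20 it tested. Of the 3 pericyte markers tested, NOTCH3 was the 1 called: PDGFRB lay at 29.9, 95.8 and 110.1 at day 4 and 134, 76.5 and 37.3 FPKM at day 7 and CSPG4 at 2.401, 5.15 and 4.15 at day 4 and 1.84, 8.905 and 2.12 at day 7, both with overlap.

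Of 36 collagen and matrix assembly genes, 4 rose and none fell, against 2.63% and 1.42% of all genes. Of the 36, 33 lay above 0 and the median was 1.13. Without the day 4 library of cow 6, 9 were called, and without that of cow 4 or 5 or the day 7 library of cow 3, none was. POSTN, the matricellular protein periostin, rose from 0.106, 0.395 and 0.545 to 8.71, 92.5 and 11.8 FPKM (4.08 ± 0.76, limma adjusted p = 0.0337), again with cow 2 far above the other day 7 cows. FBLN2, which encodes fibulin-2, rose from 119, 186 and 212 to 526, 771 and 518 FPKM (1.82 ± 0.33, limma adjusted p = 0.0323). COL16A1, a collagen that associates with fibrils, and LOXL1, which cross-links elastin, rose by 1.84 and 1.51 (limma adjusted p = 0.0276 and 0.0285). The abundant fibrillar collagens were not called: COL1A1 lay at 1365, 4379 and 3649.7 FPKM at day 4 and 3491, 11668 and 6551 at day 7, and COL3A1 at 336, 2328 and 899 at day 4 and 451, 2728 and 1352 at day 7. Outside this list, COL8A1, a short-chain collagen, rose from 2.64, 1.26 and 0.764 to 24.7, 56.6 and 21.2 FPKM (3.72 ± 0.42, limma adjusted p = 0.0115). TNC, the matrix protein tenascin C, was higher in every day 7 library at 2477, 2119 and 1351 FPKM against 224, 518 and 702 (limma adjusted p = 0.0621, not called). Among proteases, MMP1, the interstitial collagenase, had 0, 2 and 0 reads at day 4 and 200, 66 and 162 at day 7, that is 4.16, 1.801 and 4.75 FPKM (limma adjusted p = 0.0263). It passed the filter on low values through its day 7 libraries alone, and lay below the floor of 3 counts at day 4. LAMB1, a laminin chain of basement membranes, rose from 52.6, 77.1 and 67.6 to 132, 147 and 172 FPKM. FAP, a protease of activated fibroblasts, rose from 0.953, 4.41 and 3.36 to 52.3, 30.9 and 10.5 FPKM (2.91 ± 0.59, limma adjusted p = 0.0402), and was the 1 gene called among 17 preadipocyte and fibroblast markers. DCN, the proteoglycan decorin, had a difference below 0, with 1513, 3286 and 2400.3 FPKM at day 4 and 1092, 1067 and 975 at day 7 and no overlap (limma adjusted p = 0.192, not called).

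Of 32 cell division genes tested, 31 lay above 0 with a median of 0.76, and 13 were higher in every day 7 library, against 16% of all genes. CCND1 alone was called, beside 2.63% of all genes called higher. E2F1, a transcription factor of S-phase entry, had 0.987, 2.07 and 1.97 at day 4 and 3.32, 6.29 and 8.36 FPKM at day 7, and MCM2, a subunit of the replicative helicase, 2.72, 4.24 and 6.03 at day 4 and 6.58, 10.2 and 9.37 at day 7. MKI67, which marks cycling cells, lay at 0.272, 1.71 and 1.39 at day 4 and 0.869, 5.27 and 2.36 FPKM at day 7, and TOP2A, a topoisomerase of dividing cells, at 0.714, 1.87 and 1.01 at day 4 and 1.57, 4.601 and 4.33 at day 7, with overlap in both.

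SAA3 and PTX3, a pair of innate immune proteins, had the deepest falls among genes with a symbol. SAA3, a serum amyloid A protein made outside the liver, stood at 718, 532 and 40.8 FPKM at day 4 and 8.93, 0.0992 and 0 at day 7 (-6.83 ± 1.22, limma adjusted p = 0.0317). The day 4 library of cow 6 held far less than those of cows 4 and 5 and was still above all day 7 libraries. PTX3, a pentraxin of innate immunity, went from 412, 245 and 274 to 31.02, 14.2 and 4.48 FPKM (-4.45 ± 0.58, limma adjusted p = 0.0198). IL1RL1, the receptor of interleukin-33, went from 43.2, 91.3 and 60.7 to 14.2, 7.79 and 3.54 FPKM (-2.90 ± 0.45, limma adjusted p = 0.0266). SAA3 was not called by edgeR (adjusted p = 0.0642), while PTX3 and IL1RL1 were (0.0393 and 0.0393). None of 15 cytokine and chemokine genes was called, with a median of -0.16. CXCL5, a neutrophil chemokine, had 656, 181 and 97.5 at day 4 and 25.5, 36.7 and 89.9 FPKM at day 7 without overlap, and CXCL8 10.2, 2.73 and 0.855 at day 4 and 0.046, 0.0905 and 0.195 FPKM at day 7, too low to be tested in limma (edgeR adjusted p = 0.0432). IL6 pointed the other way, at 6.91, 2.497 and 8.84 FPKM at day 4 and 165, 13.4 and 23.8 at day 7, led by cow 1 and not called (limma adjusted p = 0.114). C3, the central complement component, rose from 0.976, 1.76 and 2.04 to 9.63, 11.4 and 5.69 FPKM (1.91 ± 0.30, limma adjusted p = 0.0273) as the 1 call among 10 complement genes, beside 2.63% of all genes called higher. Among 18 interferon response genes none was called.

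None of 22 glucocorticoid-responsive genes was called, and the median was -0.29. Of these 22, 5 were lower in every day 7 library and none higher in every one, against 15.2% and 16% of all genes. FKBP5, a co-chaperone of the glucocorticoid receptor, had 87.1, 90.03 and 63.9 FPKM at day 4 and 47.4, 33.99 and 43.1 at day 7 (limma adjusted p = 0.0621), and DUSP1, a MAP kinase phosphatase, 321, 301 and 331 at day 4 and 124, 169 and 179 at day 7 (limma adjusted p = 0.0627). TSC22D3 and ZBTB16, which glucocorticoids also induce, overlapped between days. On the FPKM as deposited 3 of the 22 were called lower, and with equal sums 4 of the 23 tested. Of 15 cAMP-responsive genes, FOS, a subunit of AP-1, rose from 4.46, 5.98 and 4.33 to 14.3, 21.6 and 18.8 FPKM (1.69 ± 0.23, limma adjusted p = 0.0201) and THBD, which encodes thrombomodulin, from 2.19, 5.69 and 9.198 to 55.6, 22.8 and 24.9 FPKM (2.44 ± 0.48, limma adjusted p = 0.038). Over all genes, 2.63% were called higher. CITED2, a CBP/p300-binding regulator, lay lower in every day 7 library, at 189, 77.3 and 52.5 FPKM at day 4 and 31.2, 38.4 and 19.4 at day 7 (limma adjusted p = 0.0857, not called). None of the 15 was called lower on the common scale, 2 were on the FPKM as deposited, 1 with equal sums, 1 after quantile normalization and 3 without the day 4 library of cow 6. The median of -0.08 changed sign under several settings, up to 0.43 without the day 4 library of cow 4.

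Of 35 glycolysis and hypoxia genes 3 rose: EGLN3, an oxygen-sensing prolyl hydroxylase, from 4.004, 3.005 and 2.58 to 51.8, 16.99 and 13.8 FPKM (2.54 ± 0.45, limma adjusted p = 0.032), SLC2A3, a glucose transporter, by 2.16, and ANKRD37, a hypoxia target, which had 2, 0 and 0 reads at day 4 and 29, 31 and 82 at day 7. The day 4 reads of ANKRD37 lie below the floor of 3 counts. Quantile normalization called 1 of the 35 lower. With no filter on low values none of the 35 was called, where 22 genes in all were called higher and 11 lower. VEGFA, a further hypoxia target, was not called at 64.9, 84.04 and 107 at day 4 and 217, 79.8 and 293 FPKM at day 7. Of 36 lysosome and autophagy genes, CTSZ, a cathepsin, rose from 42.7, 33.1 and 57.96 to 239, 182 and 234 FPKM (2.29 ± 0.26, limma adjusted p = 0.013). LIPA, the acid lipase that frees cholesterol and fatty acids in lysosomes, rose from 11.2, 10.9 and 16.2 to 25.2, 33.01 and 27.5 FPKM (1.12 ± 0.22, limma adjusted p = 0.0394), and NPC2, which binds the freed cholesterol, from 71.7, 106 and 106 to 196, 268 and 189 FPKM at an adjusted p just under the threshold. In 16 of these 36 genes every day 7 library was higher, against 16% of all genes, and the median was 0.62. Over all genes 2.63% were called higher, beside the 3 calls of 35 in glycolysis and hypoxia and the 3 of 36 here. Without the day 4 library of cow 6, 12 of the 36 were called, and without that of cow 4 or 5, none; as deposited and with equal sums 1 was. Among 33 genes of stress and protein folding, SDF2L1, an endoplasmic reticulum protein, and VLDLR, a lipoprotein receptor, rose by 1.92 and 1.5, with a list median of 0.37 that becomes -0.03 with equal sums. SOD3, the extracellular superoxide dismutase, was the 1 call among 31 antioxidant genes, at 0.6, 1.05 and 3.28 at day 4 and 38.4, 8.4997 and 13.8 FPKM at day 7. None of 35 oxidative phosphorylation subunits was called, and their median of 0.28 becomes 0.01 on the FPKM as deposited and -0.12 with equal sums.

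Secreted factors of adipose tissue included APLN, which encodes apelin, at 2.92, 1.58 and 1.14 FPKM at day 4 and 13.4, 12.1 and 32.4 at day 7 (2.73 ± 0.40, limma adjusted p = 0.0237), the 1 call among 15 genes of this list, beside 2.63% of all genes called higher. IGFBP7, a secreted relative of the IGF-binding proteins, rose from 17.05, 66.9 and 49.3 to 161, 505 and 336 FPKM (2.93 ± 0.57, limma adjusted p = 0.036), every day 7 library above every day 4 library. IGFBP3 shows how far cows can differ within a day, with 1.62, 2.38 and 195 FPKM at day 7 against 40.7, 226 and 225 at day 4, and was not called. GDF15, a stress-induced secreted factor, had 3.41, 0.545 and 9.37 at day 4 and 65.6, 12.9 and 112 FPKM at day 7 (limma adjusted p = 0.0629, not called). APOE, a lipoprotein component and LXR target, had 11.8, 6.95 and 41.7 at day 4 and 71.01, 52.9 and 59.98 FPKM at day 7 without overlap, and none of 10 LXR targets was called.

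Among lineage markers of other tissues, RUNX2, the osteoblast transcription factor, fell from 76.5, 67.7 and 32.3 to 14.04, 18.2 and 13.7 FPKM (-1.79 ± 0.33, limma adjusted p = 0.0323), the 1 call among 4 cartilage and bone markers tested, whose median was 0.71. Of all genes tested, 1.42% were called lower. SPP1, the bone matrix protein osteopontin, was higher in every day 7 library, at 35.2, 29.7 and 18.9 FPKM at day 4 and 71.7, 117 and 53.4 at day 7 (1.47 ± 0.34, limma adjusted p = 0.0554), and was called higher with a filter of 5 FPKM. IBSP, another bone matrix gene, had no read. DLX2, a homeobox factor, fell from 41.9, 20.3 and 21.5 to 5.24, 4.07 and 1.72 FPKM (-2.63 ± 0.39, limma adjusted p = 0.0237). TUBB3, a neuronal tubulin, rose to 2.75, 2.68 and 4.08 FPKM from 0.928, 0.688 and 1.05, and the Schwann cell genes SOX10 and MBP had no read.

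Further genes with large differences lay outside the lists. CCBE1, a secreted protein of lymphatic vessel growth, rose from 0.568, 0.354 and 3.62 to 52.7, 9.36 and 30.8 FPKM (3.61 ± 0.66, limma adjusted p = 0.0323). FNDC1, a protein with fibronectin domains, WFDC1, a secreted protein with a protease inhibitor fold, and XPNPEP2, an aminopeptidase, rose by 3.30, 3.30 and 3.18. MAOB, the monoamine oxidase B of mitochondria, fell from 2.89, 8.86 and 8.03 to 0.472, 0.0229 and 0.246 FPKM (-2.51 ± 0.39, limma adjusted p = 0.0263), and SAMD11, a nuclear protein with a SAM domain, from 3.14, 6.87 and 9.26 to 0.0834, 0.0546 and 0.176, the latter on 4, 2 and 6 reads (-2.65 ± 0.35, limma adjusted p = 0.0201).

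The genes that follow, known from adipose or stromal cells, were not called. ANGPTL4, a PPAR-induced inhibitor of lipoprotein lipase, lay at 54.4, 60.9 and 229.5 FPKM at day 4 and 49.8, 11.5 and 70.7 at day 7 (limma adjusted p = 0.289). CXCL12, a chemokine of stromal cells, lay at 51.8, 271 and 348 at day 4 and 32.04, 21.5 and 62.8 FPKM at day 7 (limma adjusted p = 0.108). PDGFRA, the receptor that marks adipose progenitors, lay at 108, 217 and 102 at day 4 and 179.8, 45.96 and 109 FPKM at day 7, with overlap. NR3C1, the glucocorticoid receptor, had 19.02, 20.9 and 9.83 at day 4 and 8.26, 9.17 and 7.16 FPKM at day 7 (limma adjusted p = 0.12), and KLF4, an early factor of adipogenesis known from mouse cells, 23.5, 13.02 and 14.5 at day 4 and 8.3004, 8.99 and 2.44 at day 7 (limma adjusted p = 0.11). RBP4, the retinol carrier that fat cells secrete, had 33.2, 22.4 and 63.4 at day 4 and 84.6, 95.2 and 48.8 FPKM at day 7, and IGF1, a growth factor, 1.27, 4.41 and 0.928 at day 4 and 0.538, 1.13 and 1.52 at day 7.

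**Figure D5:**
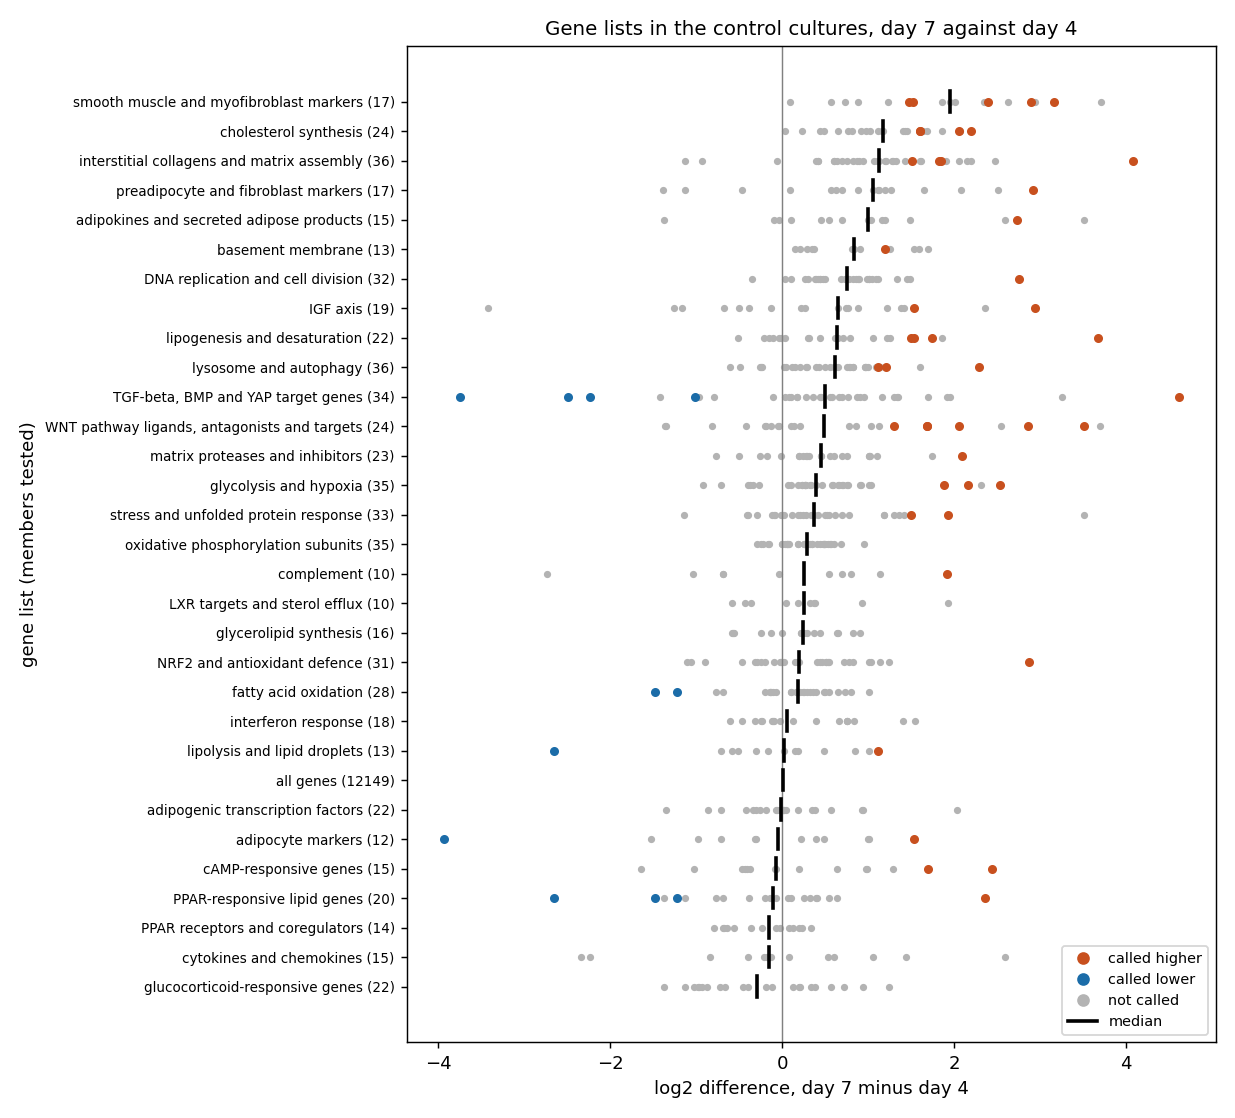
Log2 differences, day 7 minus day 4, of the genes tested in each list with at least 10 of them (orange, called higher; blue, called lower; grey, not called), with the list median as a black bar and that of all 12149 genes as a reference. Medians run from 1.95 for smooth muscle and myofibroblast markers to -0.29 for glucocorticoid-responsive genes, and lists share some genes.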

How the data were processed

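The authors deposited 1 table per day: raw read counts and FPKM per gene for day 4, and FPKM for day 7, joined here by gene identifier (27570 genes, 20301 with a symbol; 26 symbols that a spreadsheet had turned into dates were not restored). The submitters' processing notes name featureCounts 1.5.0-p3, StringTie 1.3.3b and FastQC 0.11, without their roles. Aligner, build and strandedness are not given in the sources used for this comparison, so overlapping and antisense genes cannot be told apart.

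Each library's deposited FPKM were divided by its median ratio to the geometric mean over 10547 genes with at least 1 deposited FPKM in all 6 libraries. Values of log2(FPKM + 1) were then tested with limma 3.58.1 (R 4.3.3, trend over mean level) for the 12149 genes with at least 1 FPKM in at least 3 libraries. A gene can pass this filter through the libraries of 1 day alone. POSTN and SLC2A4 did so through day 7, and FABP4 and SAMD11 through day 4. P-values were adjusted over these genes by Benjamini and Hochberg, and genes under 0.05 were called. The code was first run on simulated counts with known changes in well-covered genes, a spread set equal for all genes and no cow or table effect. That setting differs from these data, so it does not measure how reliable the calls are. The cows are the replicates, and the fit is unpaired.

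The day 7 FPKM gave whole reads for 100% of values within a tolerance of 0.01, from which the day 7 totals come. These reads and the day 4 counts went into edgeR 4.0.16 and DESeq2 1.42.0 as alternatives. The members and the 37 gene lists were chosen with earlier results of these data known. The genes named are, by rule, the 15 with the largest difference each way among called genes with a symbol, at least 5 FPKM in the higher day and no overlap, up to 4 of lowest p per list, and a fixed set of adipocyte, stromal and hormone-response genes. Others were chosen after their values were seen. Figures were drawn with matplotlib 3.10.9. Values of 3 list members are not reported here; they remain in the counts and medians of their lists.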

Additional observations from a re-analysis of the deposited data

How the results depend on the processing

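On the common scale 320 genes were higher and 172 lower. With equal sums per library the counts were 138 and 388, with no filter on low values 22 and 11, with edgeR 213 and 154, and with DESeq2 1019 and 686. The genes called lower numbered 762 on the FPKM as deposited and 287 after quantile normalization. Genes with every day 7 library higher went from 1942 to 999 as deposited and 838 with equal sums, and genes with every one lower from 1848 to 3327 and 3281. Leaving out 1 library in turn gave 9 to 1003 genes higher and 1 to 895 lower, the highest counts without the day 4 library of cow 6 and the lowest without that of cow 5. The cause of these changes was not tested, beyond the fewer samples in each omission. The other settings (a pseudocount of 0.1, a filter of 5 FPKM, robust empirical Bayes, and the mean of the 4 libraries of each cow) kept both counts within 1.5 times. None of the 492 calls changed direction under any alternative that tested it, a weak check in genes called for a large difference. Of 97 named genes that were not called, 12 changed sign under at least 1 alternative, among them PDGFRB, at 0.09 on the common scale and -0.49 without the day 4 library of cow 4. No paired analysis was possible because the cows of day 4 and day 7 are different animals. With 3 libraries a day, a gene at or below the floor of 3 counts gives no fold.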

Other observations

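These gene groups were picked after their values were seen and carry no test. By the biotype in the deposited tables, 32 of 185 snoRNA genes tested were called lower and none higher, against 1.12% of 11447 protein-coding genes called lower. snoRNAs guide the chemical modification of ribosomal RNA. The median difference of the snoRNA genes was -0.90, and 77 were lower in every day 7 library, against 15.2% of all genes. Summed, they held 1641, 2299.7 and 1354 FPKM at day 4 and 770.4, 678 and 783 FPKM at day 7, and 0.0141% to 0.0248% of reads against 0.00581% to 0.00761%. Their median length was 106 bases, so each FPKM rests on few reads: edgeR called 3 of the 71 it tested lower and DESeq2 14, and without the day 4 library of cow 5 limma called none (median -0.78). A short gene can pass the filter on low values through its day 4 libraries alone, which favours falls among those tested. With no such filter 1 of 391 snoRNA genes was called lower, with a median of -0.37. Over all genes that setting called 22 higher and 11 lower. Other short classes were also lower in the median, at -0.40 for miRNA and -0.52 for snRNA loci. The share of reads in miRNA loci did not fall with it: 0.0532%, 0.0707% and 0.0431% at day 4 and 0.0669%, 0.139% and 0.300% at day 7. Library preparation by day was not tested.

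Genes with names of ribosome assembly factors lay lower in the same libraries, in which 1.42% of all genes were called lower. All 10 tested genes named UTP with a number, most of them parts of the small-subunit processome, were below 0, with 3 called (UTP4, UTP6 and UTP20) and a median of -0.66. All 8 named RRP with a number were below 0, with RRP15 and RRP1B called. Of 20 named NOP, NOL or NOC with a number, 17 were below 0 and 5 were called, among them NOP58, a core protein of box C/D snoRNA particles (-1.06 ± 0.23, limma adjusted p = 0.0465), and NOP2, a ribosomal RNA methyltransferase, at 35.6, 38.4 and 66.5 FPKM at day 4 and 18.6, 19.4 and 17.2 at day 7. UBTF, which activates RNA polymerase I, went from 35.7, 33.5 and 45.6 to 16.96, 17.4 and 14.3 FPKM (-1.18 ± 0.20, limma adjusted p = 0.029), and GNL3, the nucleolar protein nucleostemin, from 41.5, 63.9 and 60.01 to 14.4, 24.6 and 17.1 (-1.52 ± 0.26, limma adjusted p = 0.0299). Of 5 tested genes named POLR1 with a letter, which encode subunits of RNA polymerase I, none was called; 4 were below 0 and POLR1D was at 0.73. Of 83 ribosomal protein genes none was called and 18 were below 0, with a median of 0.23, which becomes -0.05 on the FPKM as deposited.

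Further genes of BMP signalling also fell: SMAD9, a receptor-regulated SMAD, from 9.32, 13.8 and 4.76 to 0.884, 1.35 and 1.22 FPKM (limma adjusted p = 0.0273), and ATOH8, a BMP target in other species, from 2.78, 5.53 and 5.94 to 0.215, 1.201 and 0.532 (limma adjusted p = 0.0353). ID4, unlike ID1 to ID3, was not called, at 10.2, 11.6 and 11.3 at day 4 and 11.6, 31.04 and 12.9 FPKM at day 7. The adjacent microRNA loci bta-mir-221 and bta-mir-222 on chromosome X were called lower, with 57, 23 and 27 reads at day 4 and 13, 4 and 2 at day 7 for bta-mir-221, and 46, 7 and 39 reads against 5, 1 and 0 for bta-mir-222. These counts are too low at day 7 for a fold, and the reads are of the locus in an RNA-seq library and do not measure the mature microRNA.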
